A study of Mus musculus with 9 samples.

Results

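Gs-coupled receptors other than the PTH receptor were followed in mouse fat cells given PTH(1-34), or else PTHrP(1-34), for 4 h, to see how treatment through one receptor of this class left the transcripts of the others. The set comprised 9 genes, listed by name as adipocyte receptors that couple to Gs: Adrb1, Adrb3, Adora2a, Adora2b, Gipr, Mc2r, Tshr, Ptger2 and Ptger4. Through the platform's probe table, 5 of the 9 (Gipr, Mc2r, Tshr, Ptger2 and Ptger4) were matched to 8 of the 45101 probe sets on the arrays, and the other 4 genes were not analysed here. In all, 18193 genes were tested.

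A Gs-coupled receptor stimulates adenylyl cyclase through the G protein subunit encoded by Gnas. The cAMP that is formed activates protein kinase A, which in fat cells drives lipolysis and, in beige and brown cells, heat production. Gi-coupled receptors on the same cells restrain adenylyl cyclase and so oppose lipolysis. Parathyroid hormone (PTH) and its relative PTHrP (parathyroid hormone-related protein) act through the Gs-coupled receptor encoded by Pth1r, and (1-34) denotes their amino-terminal fragments.

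The 9 arrays held 3 samples treated with PTH, 3 treated with PTHrP and 3 controls. All came from inguinal stromal-vascular cells, the non-fat cells of subcutaneous fat, of male C57BL6 mice aged 30 to 35 days. Cells in every group had been induced over 2 days by a mix of rosiglitazone at 1 µM, isobutylmethylxanthine at 0.5 µM, insulin at 5 µg/ml and dexamethasone at 1 µM, kept in insulin and rosiglitazone, and given medium alone from day 6. On day 8 the treated cells received 100 ng/ml of peptide for 4 h; the sources used here do not give the treatment of the controls. The replicates are called biological, but separate mice or cultures are not named, so p-values measure only the spread between these samples.

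Array medians ranged over signals of 48.3 to 52.7; with 3 arrays a group, precision is limited by their number. The 8 measured adipocyte markers all lay above the dim level, a signal of 29.1 that is the 40th percentile of the mean signals of all probe sets. Lying above that level does not by itself identify a cell type. Their summed signal was 65791 to 69527 with PTH, 63701 to 67514 with PTHrP and 64067 to 66806 in controls. The single adipocyte marker that passed the test described below was the lipid droplet gene Cidec (log2 change 0.28 with PTH and 0.31 with PTHrP, limma adjusted p = 0.0375 and 0.0304), and no marker of another type passed with either peptide alone. With both peptides pooled the macrophage marker Csf1r passed as higher (limma adjusted p = 0.0320), with mean signals of 603 ± 31.8 with PTH, 599 ± 42.0 with PTHrP and 491 ± 36.0 in controls. Fibroblast markers were present too (6 of 6 above the dim level in controls), with summed signals of 21601 to 21815 with PTH, 20997 to 23103 with PTHrP and 21957 to 23012 in controls. Macrophage markers, relevant because Ptger4 and Ptger2 are also macrophage genes, summed to 1105 to 1271 with PTH, 1095 to 1231 with PTHrP and 1034 to 1131 in controls, with 5 of 8 above the dim level in controls and Ptprc, the pan-leukocyte marker, below it. Endothelial markers summed to 228 to 253 with PTH, 223 to 307 with PTHrP and 275 to 324 in controls (3 of 6 above the dim level), and 0 of 4 lymphocyte markers lay above it. A measure of RNA quality, the ratio of 3' to 5' actin signal, moved with treatment: it was 1.61 ± 0.0312 with PTH, 1.56 ± 0.0457 with PTHrP and 1.47 ± 0.0324 in controls (SD, n = 3 each; exact two-sided permutation p = 0.0119 for 6 treated against 3 control arrays, the smallest that 84 splits allow). The Gapdh ratio was 0.983 with PTH, 0.960 with PTHrP and 0.965 in controls (exact permutation p = 0.643). The part of the actin ratio, and of cells of other types, in the changes below was not tested.

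Among the receptors, the ACTH receptor gene Mc2r and the prostaglandin E2 receptor gene Ptger4 fell with both peptides, to between 70.9% and 77.9% of their control signal. The thyrotropin receptor gene Tshr did not pass the test. At its brightest probe set it was lower in every treated array than in any control, as were 8.11% of all genes. Gipr, which encodes the receptor for the incretin GIP, had overlapping groups, and Ptger2, the gene of the other Gs-coupled prostaglandin E2 receptor, lay below the dim level in all 9 arrays. Of the 5 measured receptors, 2 were lower and 0 higher at an adjusted p below 0.05 with PTH, and the counts were the same with PTHrP and with both peptides pooled. Over all genes tested, 6.10% passed with PTH (3.14% as lower), 5.57% with PTHrP (3.03% as lower) and 8.40% with both pooled (4.57% as lower and 3.84% as higher). The set, and the lists below, were chosen with earlier results of these data known. Their counts beside these shares are therefore no test of a set. The median log2 change of the 5 receptors was -0.25 with PTH and -0.28 with PTHrP, against -0.0027 and -0.0050 over all genes. With 5 receptors that median is the change of Tshr alone, which did not pass. The comparisons share their control arrays and so do not check each other. Here and below, signals are linear intensities, log2 changes are of signal + 16 (which understates the change of dim genes), tests are limma's two-sided test with Benjamini-Hochberg adjustment over all 18193 genes, and a gene is represented by its brightest probe set. In a culture of mixed cells, fewer cells of a type and less RNA per cell cannot be told apart.

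**Figure D1:**
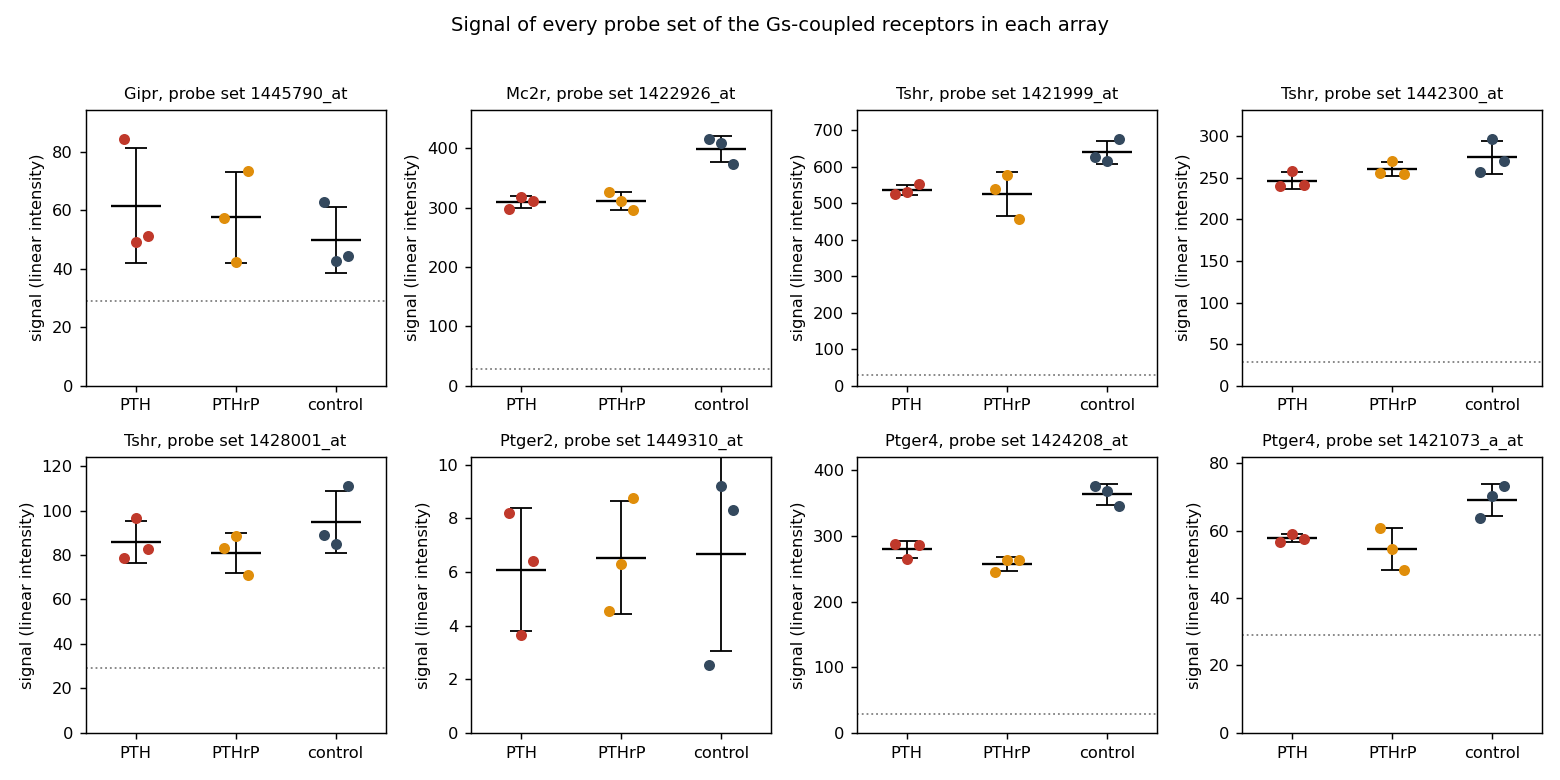
Signal (linear intensity, vertical axis from 0) of the 8 probe sets of Gipr, Mc2r, Tshr, Ptger2 and Ptger4 in each array with PTH, with PTHrP and in controls; points are arrays, black bars the mean ± SD of 3 arrays, and the dotted line the dim level of 29.1 (off the scale of the Ptger2 panel). Every treated array lies below every control for Mc2r, for both Ptger4 probe sets and for the brightest Tshr probe set, while Ptger2 stays under the dim level throughout. Of all genes, 8.11% lay below controls in that way at their brightest probe set.

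Ptger4 encodes EP4, which responds to prostaglandin E2, a lipid mediator that fat cells and macrophages release. Its promoter window and that of Ptger2, the gene of the second Gs-coupled prostaglandin E2 receptor, are the 2 printed here for the 5 measured receptors. They were not picked by expression. Windows of Mc2r, which also fell, and of Tshr and Gipr are not reported here. The windows run from 250 bases before to 50 bases after the start of the gene, 5′ to 3′ on the gene's strand, from RefSeq on GRCm38.p6, and capitals mark GC boxes (GGGCGG or its reverse complement CCGCCC) and CCAAT boxes (CCAAT or ATTGG). Ptger4 lies on the minus strand at chr15:5244138-5244437, and Ptger2 on the plus strand at chr14:44987861-44988160.
Ptger4: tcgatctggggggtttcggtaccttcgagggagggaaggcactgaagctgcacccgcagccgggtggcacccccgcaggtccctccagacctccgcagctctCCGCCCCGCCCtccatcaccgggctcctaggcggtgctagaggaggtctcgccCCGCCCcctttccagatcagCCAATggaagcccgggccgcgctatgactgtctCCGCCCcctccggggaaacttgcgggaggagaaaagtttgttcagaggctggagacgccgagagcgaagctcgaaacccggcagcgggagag
Ptger2: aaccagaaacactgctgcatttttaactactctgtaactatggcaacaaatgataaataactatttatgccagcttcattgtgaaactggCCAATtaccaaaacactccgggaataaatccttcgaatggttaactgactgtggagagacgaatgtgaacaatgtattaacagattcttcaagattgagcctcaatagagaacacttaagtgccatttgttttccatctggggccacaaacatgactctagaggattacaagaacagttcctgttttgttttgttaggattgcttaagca
The Ptger4 window had a GC content of 67% and held 4 GC box matches, a pair of which overlap by a single base, and 1 CCAAT match. The Ptger2 window had a GC content of 37.7% and held 0 GC box matches and 1 CCAAT match. Of 32851 promoter windows of the same length, 35.7% held a GC box match and 37.4% a CCAAT match. Neither window held the cAMP response element TGACGTCA (1.79% of windows) or its core TGACG on either strand (20.8% of windows). These are matches of letters within the windows and say nothing of what binds there.

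At its brightest probe set, 1424208_at, Ptger4 (Entrez gene 19219) had signals of 287, 265 and 286 with PTH, 246, 264 and 264 with PTHrP, and 376, 369 and 345 in controls. All 6 treated arrays lay below all 3 controls, as they did for 8.11% of all genes. The mean signal was 279 ± 12.8 with PTH, 258 ± 10.5 with PTHrP and 363 ± 15.998 in controls (SD, n = 3 each). The log2 change was -0.36 with PTH (SE 0.06, adjusted p = 0.00925) and -0.47 with PTHrP (SE 0.06, adjusted p = 0.00299), and the mean signal was 76.9% of control with PTH and 70.9% with PTHrP. The call held for both peptides without any 1 of the 9 arrays, with adjusted p of at most 0.0406 for PTH and 0.0167 for PTHrP. It also held under the 11 other settings, the highest adjusted p being 0.0430 and 0.0214.

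The dimmer Ptger4 probe set, 1421073_a_at, ran the same way without passing. Its signals were 56.6, 59.1 and 57.5 with PTH, 60.6, 54.5 and 48.2 with PTHrP, and 63.8, 70.4 and 73.1 in controls. Treated arrays of this probe set again all lay below controls, as for 8.11% of all genes at their brightest probe set. Its log2 changes were -0.21 and -0.27, with limma adjusted p of 0.256 and 0.132 over all 45037 probe sets that are not array controls, of which 2.70% passed with PTH and 2.39% with PTHrP. Over the same probe sets the brighter one had adjusted p of 0.0232 and 0.00776.

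Ptger4 was the receptor of the set in which the peptides stood furthest apart. Every PTH array lay above every PTHrP array, by the narrowest of margins (264.7 in the lowest PTH array and 264.1 in the highest PTHrP array), and 5.23% of all genes showed that order. The log2 difference, PTH minus PTHrP, was 0.11 (95% interval -0.02 to 0.24; unadjusted p = 0.0888, adjusted p = 0.999, limma), which did not pass the test. The second probe set had overlapping peptide groups and a log2 difference of 0.07 (95% interval -0.11 to 0.25).

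Mc2r encodes the receptor for ACTH, which is lipolytic in rodent fat. Its single probe set, 1422926_at (Entrez gene 17200), gave 298, 317 and 312 with PTH, 326, 311 and 297 with PTHrP, and 415, 409 and 374 in controls. All treated arrays lay below all controls, as for 8.11% of all genes, the highest treated value being 326 and the lowest control 374. The mean was 309 ± 10.2 with PTH, 311 ± 14.8 with PTHrP and 399 ± 22.4 in controls (SD, n = 3 each). Its log2 change was -0.35 with PTH (SE 0.06, adjusted p = 0.0120) and -0.34 with PTHrP (SE 0.06, adjusted p = 0.0140), and its mean signal was 77.4% of control with PTH and 77.9% with PTHrP. The peptides differed by a log2 value of -0.0087 (95% interval -0.14 to 0.13, adjusted p = 0.999).

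The Mc2r calls were less stable than those of Ptger4. With PTH the call was lost without PTH replicate 3 (adjusted p = 0.0516) or control replicate 2 (0.0502), and with PTHrP it was lost without control replicate 1 (0.0501) or control replicate 2 (0.0551), or when only the PTHrP and control arrays were fitted (0.0612). The log2 change itself stayed between -0.37 and -0.31 for PTH and between -0.36 and -0.30 for PTHrP over the 11 other settings. For both peptides pooled against controls it was -0.35 (SE 0.05, adjusted p = 0.00510), and that call held without any 1 array (highest adjusted p 0.0295).

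Tshr encodes the thyrotropin receptor, through which thyroid-stimulating hormone stimulates lipolysis in fat cells. Its brightest probe set, 1421999_at (Entrez gene 22095), gave 526, 530 and 552 with PTH, 539, 577 and 458 with PTHrP, and 626, 616 and 675 in controls. Treated arrays all lay below the controls, as for 8.11% of all genes. Its log2 change was -0.25 with PTH (95% interval -0.44 to -0.05, adjusted p = 0.149) and -0.28 with PTHrP (-0.47 to -0.09, adjusted p = 0.105), and neither passed. For both peptides pooled it was -0.26 (SE 0.07, adjusted p = 0.0648). That last value passed without PTHrP replicate 2 (adjusted p = 0.0379) or PTHrP replicate 3 (0.0443), and with all arrays kept it passed under 3 of 10 other settings, with dim genes left out (0.0217), a trended and robust variance (0.00953) or a constant of 64 (0.0283).

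The other Tshr probe sets moved less and overlapped between groups. Probe set 1442300_at averaged 246 ± 10.2 with PTH, 260 ± 8.61 with PTHrP and 274 ± 20.2 in controls, with log2 changes of -0.15 and -0.07 (adjusted p = 0.377 and 0.736 over all probe sets, limma, n = 3 each). Probe set 1428001_at averaged 85.9 ± 9.47 with PTH, 80.9 ± 8.999 with PTHrP and 94.8 ± 14.04 in controls, with log2 changes of -0.12 and -0.19 (adjusted p = 0.730 and 0.530, limma, n = 3 each). All 3 probe sets had a lower mean with each peptide than in controls, and with the mean of the probe sets the log2 change of Tshr was -0.17 with PTH and -0.18 with PTHrP.

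Gipr, the receptor gene for glucose-dependent insulinotropic polypeptide, was above the dim level in all 9 arrays but varied widely within groups. Its only probe set, 1445790_at (Entrez gene 381853), gave 84.3, 49.2 and 51.3 with PTH, 57.4, 42.2 and 73.3 with PTHrP, and 62.9, 42.5 and 44.3 in controls. The groups overlapped, with a single high array in the PTH group. Gipr had a log2 change of 0.22 with PTH (95% interval -0.27 to 0.71, adjusted p = 0.671) and 0.15 with PTHrP (-0.34 to 0.64, adjusted p = 0.787). These values depended on single arrays: without PTH replicate 1 the change with PTH was 0.02, and over all left-out arrays it lay between 0.02 and 0.36 with PTH and between 0.0014 and 0.31 with PTHrP.

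Ptger2 (EP2; Entrez gene 19217) had a single probe set, 1449310_at, that stayed dim. Its signals were 8.20, 3.66 and 6.42 with PTH, 4.55, 6.31 and 8.75 with PTHrP, and 2.53, 9.20 and 8.32 in controls, all below the dim level of 29.1. No fold is given for it.

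**Figure D2:**
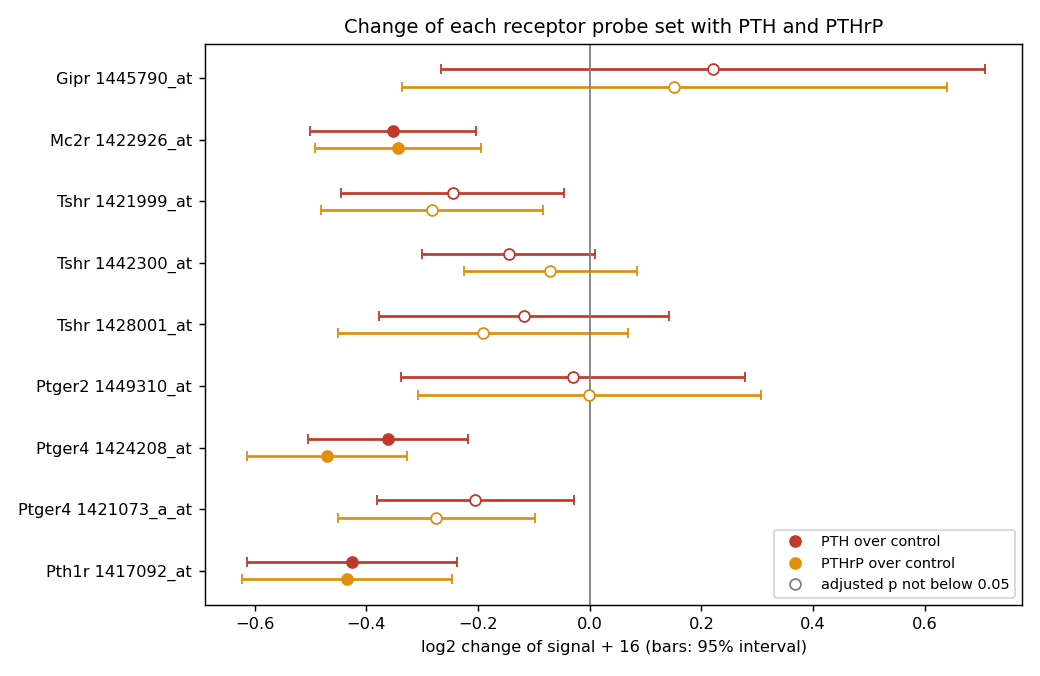
Log2 change of signal + 16 (horizontal axis) of each probe set of the 5 measured receptors, and of Pth1r, with PTH over control and PTHrP over control; bars are 95% intervals from limma over all probe sets, and filled points passed an adjusted p below 0.05 (over genes for a gene's brightest probe set, over probe sets otherwise). The filled points of the set are Mc2r and the brighter Ptger4 probe set, between -0.34 and -0.47.

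Pth1r, the gene of the peptides' own receptor, also fell with both. It had signals of 224, 239 and 279 with PTH, 231, 253 and 250 with PTHrP, and 332, 344 and 333 in controls. On the log2 scale Pth1r fell by 0.43 with PTH (SE 0.08, adjusted p = 0.0174) and by 0.43 with PTHrP (SE 0.08, adjusted p = 0.0170). With PTHrP the Pth1r call was lost without PTHrP replicate 1 (adjusted p = 0.0710), control replicate 1 (0.0504), control replicate 2 (0.0637) or control replicate 3 (0.0535). With PTH it was lost without PTH replicate 1 (0.0538), PTH replicate 2 (0.0718), control replicate 2 (0.0677) or control replicate 3 (0.0541).

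Mrap, the accessory protein that carries the ACTH receptor to the cell surface, rose with both peptides while Mc2r fell. Mrap had signals of 3486, 3668 and 3695 with PTH, 3566, 3491 and 3546 with PTHrP, and 3022, 2637 and 3042 in controls, with every treated array above every control, as for 7.48% of all genes. Mrap had a log2 change of 0.32 with PTH (SE 0.06, adjusted p = 0.0237) and 0.29 with PTHrP (SE 0.06, adjusted p = 0.0385). Its call with PTH was lost without PTH replicate 1 (0.0525), PTH replicate 2 (0.0884) or PTH replicate 3 (0.100), and its call with PTHrP was lost without any 1 of the 9 arrays (0.0537 to 0.123). A second Mrap probe set lay below the dim level, and with the mean of both the log2 change was 0.18 with PTH and 0.19 with PTHrP, neither of which passed. Mrap passed under 7 of 11 other settings with PTH and 6 of 11 with PTHrP.

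All 10 listed accessory and G protein genes were measured: with PTH, Mrap and Ramp3 rose (2), 0 fell and 8 missed the threshold. With PTHrP the same 2 rose, 1 fell (Ramp1) and 7 did not pass, against 6.10% of all genes called in either direction with PTH and 5.57% with PTHrP. The median log2 change was 0.0067 with PTH and 0.04 with PTHrP. Ramp3 and Ramp1 encode partner proteins of the calcitonin receptor family. Ramp3 rose by 1.78 and 1.82 on the log2 scale (adjusted p = 0.000378 and 0.000313, limma). Its controls (43.8, 35.0 and 23.4) lay about the dim level, and the change was 2.18 and 2.22 with a constant of 1 and 1.15 and 1.18 with 64. Ramp1 had changes of -0.25 (adjusted p = 0.0958) and -0.37 (0.0264). The Ramp1 call was lost without PTH replicate 3 (0.0505), PTHrP replicate 1 (0.0973), PTHrP replicate 3 (0.0683), control replicate 2 (0.0826) or control replicate 3 (0.0847), and also with the mean of its probe sets (log2 change -0.09), with all probe sets tested (0.0524) and with only the PTHrP and control arrays (0.0630). Gnas, the Gs subunit, had log2 changes of 0.03 and 0.03, and Gnai2, a Gi subunit, -0.01 and -0.06; neither passed.

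Ptger4 also had a counterpart that moved the other way. Ptger3 encodes EP3, a prostaglandin E2 receptor that couples to Gi, and its brighter probe set gave 60.7, 76.7 and 75.2 with PTH, 85.1, 65.2 and 58.0 with PTHrP, and 33.2, 24.7 and 25.7 in controls. The treated arrays all lay above the controls, as for 7.48% of all genes. The control mean of 27.9 ± 4.64 was just under the dim level, so the size of the change depends on the constant added (a log2 change of 1.32 with PTH and 1.28 with PTHrP at a constant of 1, and of 0.55 and 0.53 at 64). The log2 change was 0.99 with PTH (SE 0.13, adjusted p = 0.00459) and 0.95 with PTHrP (SE 0.13, adjusted p = 0.00544), and both calls held without any 1 array. The other Ptger3 probe set did not reach the dim level in any group, and with the mean of both the change was 0.39 (adjusted p = 0.0951) with PTH and 0.40 (0.0946) with PTHrP.

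**Figure D3:**
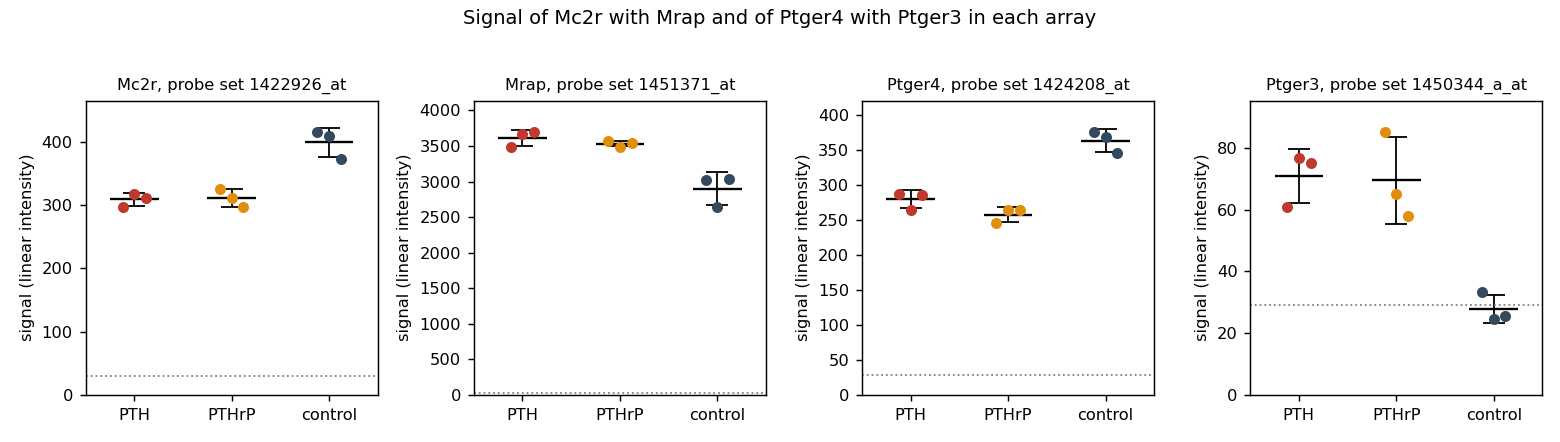
Signal (linear intensity, vertical axis from 0) of Mc2r with its accessory protein gene Mrap, and of Ptger4 with the Gi-coupled Ptger3, in each array with PTH, with PTHrP and in controls; points are arrays, black bars the mean ± SD of 3 arrays, and the dotted line the dim level of 29.1. Mc2r and Ptger4 lie lower, and Mrap and Ptger3 higher, in each of 6 treated arrays than in any control. Of all genes, 8.11% lay lower and 7.48% higher in that way. Levels are not comparable between genes.

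The list of Gi-coupled receptor genes held 14, of which 11 were measured. With PTH 3 of them rose, 2 fell and 6 missed the threshold, and with PTHrP 3 rose, 0 fell and 8 missed it. Over all genes, 2.96% passed as higher with PTH and 2.54% with PTHrP, and 3.14% and 3.03% passed as lower. As the list was chosen with earlier results of these data known, its counts are no test against these shares. The median log2 change of the list was 0.10 with PTH and 0.13 with PTHrP. The risers with both peptides were Ptger3, S1pr1, a sphingosine 1-phosphate receptor gene, and Sucnr1, the succinate receptor gene. S1pr1 averaged 366 ± 22.2 with PTH, 376 ± 11.9 with PTHrP and 143 ± 16.9 in controls (log2 change 1.27 and 1.31, adjusted p = 0.000146 and 0.000120, limma, n = 3 each). Sucnr1 averaged 503 ± 18.5 with PTH, 496 ± 30.6 with PTHrP and 404 ± 23.8 in controls (log2 change 0.30 and 0.29, adjusted p = 0.0316 and 0.0439, limma, n = 3 each). S1pr1, Ramp3 and Calcrl are also known from endothelial cells. Of the endothelial markers, 0 of 6 passed in either direction with PTH or with PTHrP (median log2 change -0.06 and -0.18), and 3 of 6 lay above the dim level. Their summed signal with PTH lay wholly below controls (228 to 253 against 275 to 324), while with PTHrP it overlapped them (223 to 307). A part of endothelial cells in these changes was not tested.

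The S1pr1 calls held without any 1 array, whereas those of Sucnr1 mostly did not. With PTH, Sucnr1 failed without any 1 PTH or control array (0.0519 to 0.118), and with PTHrP it failed without any 1 array but PTHrP replicate 2 (0.0643 to 0.149). With all arrays kept it passed under 8 of 11 other settings with PTH (highest adjusted p 0.0685) and under 6 of 11 with PTHrP (highest adjusted p 0.122). Adra2c, an alpha-2 adrenoceptor gene, had a log2 change of -0.38 with PTH (adjusted p = 0.0476) that failed without any 1 array but control replicate 2 (0.0526 to 0.142), and averaging its probe sets gave a change of 0.0032; it passed under 4 of 11 other settings. Npy5r, a neuropeptide Y receptor gene, was called lower with PTH (-0.36, adjusted p = 0.0493) but lay below the dim level in every group and failed without any 1 array (0.0584 to 0.1497). The nicotinic acid and ketone body receptor gene Hcar2, a known brake on lipolysis, averaged 438 ± 38.1 with PTH, 433 ± 14.7 with PTHrP and 397 ± 11.5 in controls (log2 change 0.14 and 0.12, adjusted p = 0.324 and 0.395, limma, n = 3 each). Named after its values were seen, Ffar2, a short-chain fatty acid receptor gene, did not pass at its brightest probe set (log2 change -0.02 and 0.13), while its second probe set did (0.35 and 0.33, adjusted p = 0.0257 and 0.0355 over all probe sets, limma).

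Among 28 measured genes of other Gs-coupled receptors (33 listed, Pth1r included), of which 15 lay above the dim level, 1 rose and 2 fell with PTH, leaving 25, and 0 rose and 3 fell with PTHrP, leaving 25. Over all genes, 2.96% passed as higher and 3.14% as lower with PTH, and 2.54% and 3.03% with PTHrP. The median log2 change was -0.07 with PTH and 0.06 with PTHrP. Calcrl, the calcitonin-receptor-like receptor gene, averaged 103 ± 8.16 with PTH, 106 ± 8.48 with PTHrP and 146 ± 11.7 in controls (log2 change -0.44 and -0.41, adjusted p = 0.0167 and 0.0241, limma, n = 3 each). Ptgir, the prostacyclin receptor gene, averaged 202 ± 11.0 with PTH, 188 ± 3.19 with PTHrP and 246 ± 22.4 in controls, with log2 changes of -0.26 (adjusted p = 0.0715) and -0.35 (0.0244). For both genes the treated arrays lay below all controls, as for 8.11% of all genes. Drd1, a dopamine receptor gene, rose with PTH (0.68, adjusted p = 0.0151) and had a change of 0.40 with PTHrP (0.110); its control mean of 18.0 ± 2.93 was below the dim level. The difference between the peptides was not significant for Drd1 or for Ptgir (limma adjusted p = 0.999 for each).

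The calls of Calcrl, Drd1 and Ptgir depended on single arrays, and some on the fit. With PTH, Calcrl failed without PTH replicate 2 (0.0523) or PTH replicate 3 (0.0671), and Drd1 without PTH replicate 1 (0.0576), PTH replicate 3 (0.0672), control replicate 2 (0.0603) or control replicate 3 (0.0516). With PTHrP, Calcrl failed without PTHrP replicate 1 (0.0856), PTHrP replicate 2 (0.0732), control replicate 1 (0.0677) or control replicate 3 (0.0569). Ptgir failed with PTHrP without PTH replicate 3, any 1 PTHrP array, control replicate 1 or control replicate 2 (0.0501 to 0.0804), and Drd1 passed with PTHrP without PTHrP replicate 3 (0.0386). With the mean of its probe sets, 2 of which lay below the dim level, Calcrl had log2 changes of -0.15 and -0.07 and did not pass. The PTHrP calls of Calcrl and Ptgir were also lost with only the PTHrP and control arrays fitted (0.0655 and 0.0749), and that of Ptgir with all probe sets tested (0.0501). The Drd1 change with PTH was 1.07 with a constant of 1 and 0.32 with 64.

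**Figure D4:**
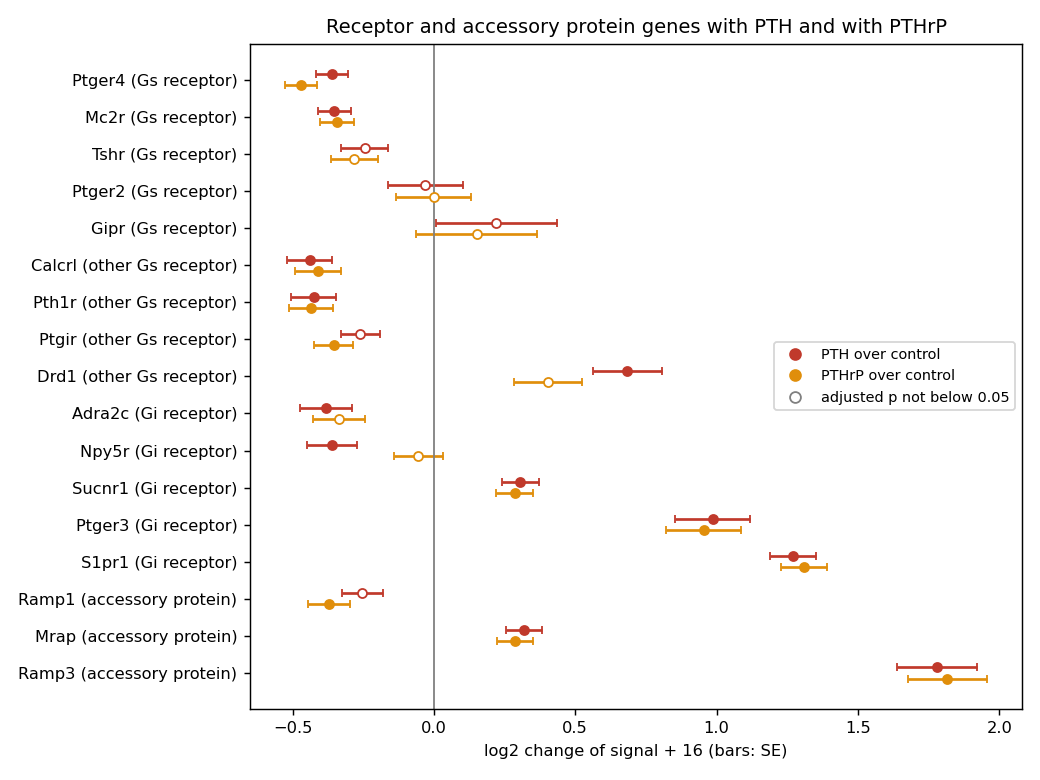
Log2 change of signal + 16 (horizontal axis; bars are the SE) with PTH over control and PTHrP over control for the 5 measured Gs-coupled receptors of the set and for those genes of the other lists (other Gs-coupled receptors, Gi-coupled receptors, accessory proteins) that passed with either peptide; filled points passed an adjusted p below 0.05. Ramp3, S1pr1 and Ptger3 stand between 0.95 and 1.82, and the filled points of Gs-coupled receptors, other than Drd1, between -0.34 and -0.47.

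Direct comparison of the peptides gave 0 of 5 receptors past the threshold. Over all 18193 genes limma called 0 as well (0% of genes), while 730, or 4.01%, had an unadjusted p below 0.05. It called 2 genes with a pseudocount of 1 and 1 gene without PTHrP replicate 1. The 95% intervals of the log2 difference, PTH minus PTHrP, were -0.14 to 0.13 for Mc2r, -0.02 to 0.24 for Ptger4, -0.16 to 0.23 for Tshr and -0.42 to 0.56 for Gipr, and differences within these intervals could not be told from none.

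The genes whose pattern over the 9 arrays was most like that of Mc2r, measured as the root mean square difference of centred log2 values, were Ahr, the aryl hydrocarbon receptor gene (0.03, against 0.17 for the spread of Mc2r itself), and Ms4a4d (0.03). Their log2 changes were -0.34 and -0.36 for Ahr and -0.37 and -0.34 for Ms4a4d with PTH and PTHrP. For Ptger4 (spread 0.21) they were Hspa1a, an inducible heat shock protein gene (0.04; log2 changes -0.40 and -0.54), and Trim47 (0.05; -0.40 and -0.49). The genes were picked by this likeness, so changes close to those of Mc2r and Ptger4 follow from the choice. These are descriptions over 9 arrays that fall into treated and control groups.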

How the data were processed

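The intensities used were those deposited per probe set; per the labels' protocols, total RNA was labelled as biotin-cRNA by the Affymetrix procedure, and how probes were summarised and arrays scaled is not stated in the sources used here. A linear scale was taken from the range (highest value per array 17113 to 18614). The platform's table gave 1 gene symbol to 34945 of 45101 probe sets, several to 932 and none to 9160; 64 were array controls. A gene was its brightest probe set with 1 symbol. On log2(intensity + 16), group means were estimated by limma 3.58.1 (R 4.3.3; statmod 1.5.0), with empirical Bayes variance and Benjamini-Hochberg adjustment over all genes (threshold 0.05). Other probe sets were tested in a fit of all 45037 that are not controls. Figures used matplotlib 3.10.9 in Python 3.11.15. The steps were tested on simulated data.

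The members and lists were chosen with earlier results of these data known. The rule for named genes took all receptors of the set, Pth1r, Hcar2, Ptger3 and Mrap, list genes past the threshold with either peptide, and the 2 genes most like each member that passed. Alternatives changed the scaling (quantile, median), the constant added (1 or 64), the genes (all probe sets, probe sets averaged, no genes among the dimmest 40%), the variance (trended and robust, array weights, a replicate block) and the arrays fitted (only the groups compared, or without each array). No scan dates were used, so no batch was fitted. No 2 arrays held identical values. Deviations of arrays with the same replicate number correlated between -0.170 and 0.122, and those with different numbers between -0.173 and 0.205. The numbers were therefore not taken as pairs, though this check cannot exclude pairing.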

Additional observations from a re-analysis of the deposited data

How the results depend on the processing

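With the replicate block, 2 receptors (Mc2r and Ptger4) still passed with PTH and 2 with PTHrP, as in the fit without it. The block ended the calls of Sucnr1 (limma adjusted p = 0.0685 and 0.0915) and Mrap (0.0603 and 0.0911) with PTH and with PTHrP. It also ended those of Adra2c (0.101) and Npy5r (0.127) with PTH, and of Calcrl (0.0621) and Ptgir (0.0572) with PTHrP. Whether equal replicate numbers mark paired samples is not stated in the sources used here. Over all genes the block gave 672 calls against 1109 with PTH and 575 against 1013 with PTHrP. The count of receptors that passed was 1 with PTHrP when only the groups compared were fitted, and otherwise 2 or 3 with either peptide against control under the alternatives that kept all arrays, the third being Tshr. Leaving out 1 array in turn gave 1 to 2 receptors with PTH, 1 to 2 with PTHrP, 2 to 3 with both peptides together and 0 to 0 between the peptides. Of the 98 values for single receptors under the alternatives, 95 kept their side of the threshold with PTH and 92 of 98 with PTHrP, and 0 called values changed sign. The values that crossed were all of Mc2r and Tshr. Those of Gipr and Ptger2, counted among the 98, never came near it (lowest limma adjusted p 0.488 with PTH and 0.521 with PTHrP). Tshr passed with a trended and robust variance (adjusted p = 0.0414 with PTH, 0.0201 with PTHrP), and with PTHrP also with dim genes left out (0.0379) or a pseudocount of 64 (0.0499). The Adra2c change with PTH turned from -0.38 to 0.0032 when its probe sets were averaged, the other 3 of which lay below the dim level.

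Counts over all genes moved by over 1.5 times with dim genes left out (1762 with PTH, 1672 with PTHrP), with a trended and robust variance (1743, 1648), with the replicate block (above), with only the PTHrP and control arrays (455), and without some single arrays. Those counts were 636, 524 and 469 with PTH when PTH replicate 1, 2 or 3 was left out, and 596 and 699 for control replicates 2 and 3. With PTHrP they were 671 for PTH replicate 3, 513 for PTHrP replicate 1, 560 for control replicate 2 and 654 for control replicate 3 (with both pooled 1007 when PTH replicate 3 was left out, 861 for control replicate 2 and 977 for control replicate 3). Both peptides pooled already use all groups, so fitting only the groups compared was not run for them. With median centring 55.7% of the PTHrP calls were higher, against 45.6% without it. The share also rose with PTH (48.5% to 55.9%) and with both pooled (45.7% to 55.2%). With quantile normalization the share was 52.0% with PTH, 51.3% with PTHrP and 50.5% with both pooled. Median centring moves every log2 change of a comparison by the same amount (with PTH, Mc2r from -0.352 to -0.333 and Gipr from 0.221 to 0.240). The cause of the differences between array medians, and of the shift with quantile normalization, was not tested. Ptger2, at signals of 2.53 to 9.20, was too dim for any change to be read.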
